A study of Arabidopsis thaliana with 12 samples.

Results

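Wild-type Arabidopsis roots that had received BiAux were compared with roots that had not, across 12 RNA-seq libraries. BiAux is a synthetic compound built from auxin units joined to a glucoside, and indole-3-acetic acid (IAA) is the main natural auxin. Seedlings grew for 4 d at 22 °C in half-strength MS medium and then spent 3 d on fresh medium that was mock or held BiAux (5 µM), IAA (10 nM) or both together at these doses. Poly(A) RNA of the roots was sequenced, with 3 libraries per treatment. The members were chosen by library name: 6 of the 12 libraries held BiAux (3 BiAux, 3 BiAux+IAA) and 6 did not (3 mock, 3 IAA). The BiAux effect given here is the difference between these 2 arms of 6, each with 3 IAA-treated libraries. IAA was a covariate in the fit. The question was which genes BiAux changed whether or not IAA was added.

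The groups follow the library titles and the table's column names. For 7 of the 12 libraries, the treatment entry in the labels does not match the title. The supplementary fold changes that the study gives under BiAux equal what the IAA-labelled libraries show in this table. BiAux and IAA below therefore mean the libraries so labelled. Were these single-treatment labels exchanged, the comparison asked for would be the IAA term of the same fit, whose values stand beside the main gene groups and several single genes. The table gives log2 values of normalized counts, which sum to between 32413978 and 32720463 in each library. These sums do not show how deeply each library was sequenced. The study's methods give a round read number per library, but not that of each one. No gene of the table is under 3 normalized counts in IAA 3, while every other library has between 41 and 141 genes at 0. A gene that was nearly silent in IAA 3 was therefore not analysed here. Mock 1 and BiAux 1 stood apart from the other libraries together, on a first principal component that held 39.2% of the variance, and results are also given without them where they bear on a result. Nothing says that the 3 libraries of a treatment came from separate cultures, so that p-values measure the spread between these libraries, which may be technical.

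Several of the groups below belong to nutrient signalling. When phosphate is short, transcription factors of the PHR1 family bind a short palindromic element (P1BS) and switch on phosphate transporters, phosphatases, the SPX feedback regulators and enzymes that replace phospholipids with galactolipids and sulfolipids. Auxin acts through TIR1/AFB co-receptors, which mark Aux/IAA repressors for breakdown and so release ARF transcription factors, and in roots this pathway starts lateral roots. GH3 enzymes, themselves induced by auxin, join IAA to amino acids and so lower free auxin.

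BiAux changed a small part of the transcriptome. Of 19338 genes tested, 79 were higher and 101 lower in the 6 BiAux libraries at an adjusted p under 0.05 and a log2 difference over 0.5, which is 0.931% of genes (0.409% higher and 0.522% lower). The rises were led by phosphate starvation genes and by the potassium transporter HAK5, and the falls by the ribosomal protein gene AT1G36240, DIN2 and SEN1. A rise above 2-fold was seen for 22 of the called genes and a fall beyond it for 15. A further 95 genes passed the adjusted p with a smaller difference (1.42% of genes passed at any size), and the median difference over all genes was -0.03. The count of 180 fell to 101 without IAA 1, 104 without IAA 2, 101 without IAA 3 and 117 without BiAux+IAA 3. It was 227 without mock 1 and BiAux 1. The IAA term of the same fit called 87 genes higher (0.45%) and 160 lower (0.827%), 1.28% in all. For BiAux against mock, the study reports phosphate ion transport and glucosinolate biosynthesis enriched among lowered genes. Here the phosphate starvation and aliphatic glucosinolate lists had medians of 0.65 and 0.36 in that comparison, and -0.26 and -0.48 for the IAA term.

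The effect could be measured on 2 sets of libraries that share none: BiAux against mock, and BiAux+IAA against IAA. Without IAA, 6 genes passed the call (0.031% of genes), 4 higher (0.0207%) and 2 lower (0.0103%). With IAA, 365 passed (1.89%), of which 158 were higher (0.817%) and 207 lower (1.07%). The count of 365 was 174 without IAA 1, 127 without IAA 2 and 144 without BiAux+IAA 3. The 4 rises without IAA were AT2G01422, AT1G75945, AT5G26270 and AT5G24240, and the 2 falls were PLA2A and AT1G36240. For BiAux against mock, replicates of the same number deviated together in each of the 3 pairs (r from 0.407 to 0.779). Deviations were taken from the mean of 3 libraries, so that these r values depend on each other, and mock 1 and BiAux 1 stood apart together. Libraries of unlike number were not compared, so that pairing is not shown. With the replicate number as a block, this comparison called 80 genes higher and 191 lower. Its count was 31 without mock 1 and 1 without any of the other 5 libraries.

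Genes that moved in one set tended to move the same way in the other. With a log2 difference over 0.5 and an unadjusted p under 0.05, 98 genes (0.507%) were higher with BiAux than with mock and 209 (1.08%) lower, 1.59% in all. Of the 98 rises, 68 (69.4%) were also higher under this rule with BiAux+IAA than with IAA, where 1.51% of all genes were. None was lower there. Of the 209 genes lower without IAA, 69 (33.0%) were lower with IAA, against a background of 1.89%, and 3 were higher. Read from the other side, the 68 shared rises were 23.3% of the 292 rises with IAA, and the 69 shared falls were 18.9% of its 365 falls. Over all 19338 genes the differences of the 2 sets had r = 0.34 and the same sign in 52.6%. Genes are not independent replicates, and this r is a description. The plot of the BiAux effect in the 2 sets shows the called genes in the upper right and lower left.

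**Figure D1:**
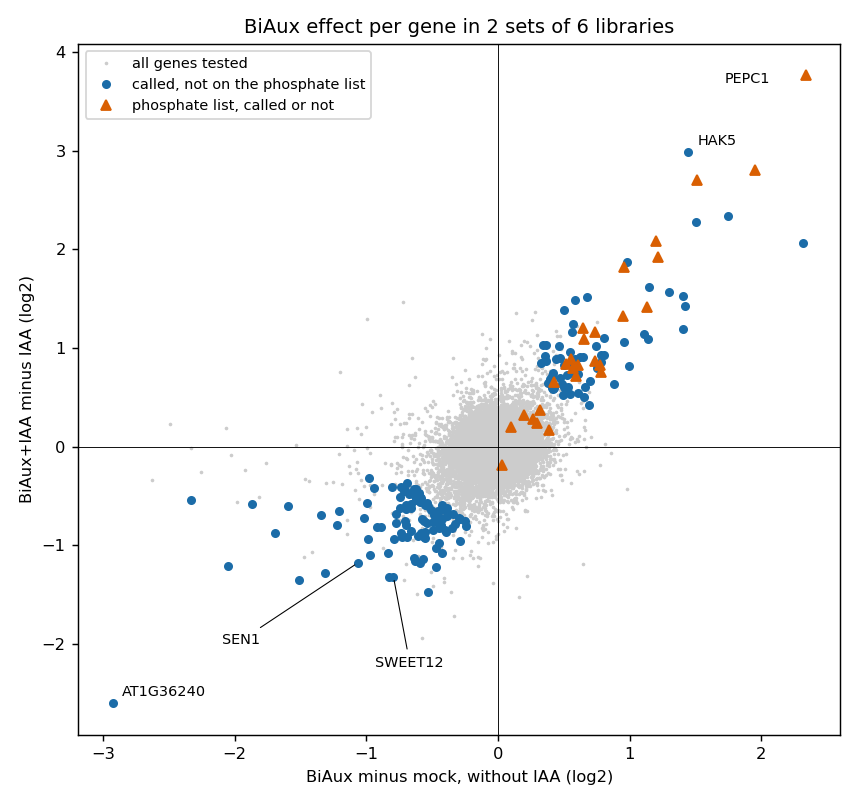
BiAux effect per gene: the log2 difference between BiAux and mock (x axis) against that between BiAux+IAA and IAA (y axis), for all 19338 genes tested (grey), the called genes that are not on the phosphate list (blue circles) and the 27 genes of the phosphate list, called or not (orange triangles). All 180 called genes have the same sign on both axes, which the call over all 12 libraries favours; PEPC1 is at 2.34 and 3.76, and AT1G36240 at -2.92 and -2.60.

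Whether the BiAux effect differed with IAA was asked by the interaction term. No gene passed an adjusted p under 0.05 in limma (smallest 0.131), and 1535 (7.94%) had an unadjusted p under 0.05.  Of the 79 called rises, 66 were larger with IAA than without, and of the 101 called falls 59 were. The share over all genes was not counted, so that these counts do not show a larger effect with IAA.

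The phosphate starvation list held the most called genes of the 20 lists. Of the 27 listed, all of which were tested, 17 rose and none fell, against 0.409% of all genes called higher. Their median difference was 0.77, against -0.03 over all genes. It was 0.65 for BiAux against mock and 0.84 for BiAux+IAA against IAA, and -0.26 for the IAA term. Most of the highest values came from 2 libraries, BiAux 1 and BiAux+IAA 2. Without both, 13 members were called and the median was 0.55. The number called was 6 without IAA 1, 9 without IAA 2, 6 without IAA 3 and 8 without BiAux+IAA 3, with list medians of 0.72 to 0.80, and 18 without mock 1 and BiAux 1.

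PHR1-type factors bind the element GNATATNC, which reads the same on both strands. The 300 bases before the annotated gene start (RefSeq, TAIR10.1) held it in 8 of the 27 listed genes (29.6%), in 7 of the 17 that rose (41.2%) and in 1261 of the 19267 windows of all genes tested (6.54%). Among the called rises not on the list, 9 of 62 windows held it (14.5%), and among the called falls 10 of 101 (9.9%). A match is a description of the letters and not a shown binding site. The windows of SPX3 and SRG3 are printed because each holds 2 matches, that of PS2 because the gene rose most among the listed genes with 1 match, and that of HAK5 because the gene rose beside them without being a phosphate gene. Each runs 5′ to 3′ towards the gene, with the matches in capitals.
SPX3 (chr2:18606110-18606409, plus strand): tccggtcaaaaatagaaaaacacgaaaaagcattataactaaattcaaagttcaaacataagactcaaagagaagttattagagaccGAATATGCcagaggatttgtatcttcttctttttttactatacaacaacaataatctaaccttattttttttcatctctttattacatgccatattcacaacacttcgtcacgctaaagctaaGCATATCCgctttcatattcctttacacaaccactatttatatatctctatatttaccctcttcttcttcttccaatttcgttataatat
SRG3 (chr3:350011-350310, minus strand): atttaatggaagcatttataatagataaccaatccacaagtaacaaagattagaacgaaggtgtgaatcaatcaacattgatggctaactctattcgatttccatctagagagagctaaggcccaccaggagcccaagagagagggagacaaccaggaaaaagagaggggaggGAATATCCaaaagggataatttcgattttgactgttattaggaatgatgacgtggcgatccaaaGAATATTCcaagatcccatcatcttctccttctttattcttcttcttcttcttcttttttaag
PS2 (chr1:27466349-27466648, minus strand): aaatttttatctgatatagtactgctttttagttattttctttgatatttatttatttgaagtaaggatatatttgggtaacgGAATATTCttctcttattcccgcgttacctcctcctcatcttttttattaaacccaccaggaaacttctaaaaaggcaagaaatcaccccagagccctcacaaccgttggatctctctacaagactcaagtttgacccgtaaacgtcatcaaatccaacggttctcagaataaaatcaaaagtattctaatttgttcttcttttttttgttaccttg
HAK5 (chr4:7802252-7802551, minus strand): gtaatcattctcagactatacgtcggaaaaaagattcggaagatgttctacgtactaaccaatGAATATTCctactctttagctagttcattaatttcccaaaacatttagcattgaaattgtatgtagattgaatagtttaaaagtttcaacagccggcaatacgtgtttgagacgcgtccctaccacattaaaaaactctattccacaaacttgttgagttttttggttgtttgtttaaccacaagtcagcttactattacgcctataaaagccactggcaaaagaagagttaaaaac
The matches of SPX3 begin 213 and 90 bases before the gene start, those of SRG3 127 and 63 bases, that of PS2 217 bases and that of HAK5 237 bases. PEPC1, IPS1 and SPX1, which rose too, have no match in these 300 bases.

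PEPC1 (AT1G17710), known as a phosphoethanolamine and phosphocholine phosphatase, rose most of all genes. Its normalized counts were 74, 94 and 152 in mock and 1584, 361 and 343 in BiAux. They were 19, 24 and 31 in IAA and 245, 1403 and 436 in BiAux+IAA. All 6 BiAux libraries were above all 6 others, which held for 91 of the 19338 genes in this direction (0.471%). The log2 difference was 3.05 (SE 0.45, adjusted p 0.0048), on the scale of the count plus a pseudocount of 16.3, which understates the change of low genes.

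The SPX genes encode proteins that hold PHR1 back when phosphate is ample. SPX3 stood at 61, 68 and 80 in mock against 726, 222 and 189 in BiAux, and at 18, 19 and 32 in IAA against 131, 583 and 207 in BiAux+IAA. SPX1 was at 1779, 1480 and 2242 in mock against 5252, 2911 and 2863 in BiAux, and at 1093, 1018 and 796 in IAA against 2141, 6186 and 3060 in BiAux+IAA. In SPX3 the arms did not overlap, while in SPX1 BiAux+IAA 1 lay below mock 3. The log2 differences were 2.38 (SE 0.36, adjusted p 0.00485) and 1.39 (SE 0.25, adjusted p 0.0161). SPX2, of the same family, differed by 0.27 (SE 0.08) and did not pass (adjusted p 0.119).

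IPS1, a non-coding RNA that sequesters the phosphate microRNA miR399, counted 131, 143 and 194 in mock, 669, 386 and 396 in BiAux, 43, 43 and 53 in IAA and 208, 731 and 382 in BiAux+IAA. The difference was 2.1 (SE 0.28, adjusted p 0.00244). AT5G03545, a second RNA of that family, rose by 0.87 (SE 0.18, adjusted p 0.0282) from a higher level, 4572 to 10261 without BiAux and 7754 to 16566 with it. Both therefore rose, IPS1 without overlap between the arms and AT5G03545 with it.

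Among phosphatases, the pyrophosphatase PS2 (AT1G73010) counted 439, 558 and 655 in mock, 2068, 1016 and 977 in BiAux, 248, 237 and 296 in IAA and 640, 2128 and 1105 in BiAux+IAA. It rose by 1.64 (SE 0.27, adjusted p 0.0106), with BiAux+IAA 1 just below mock 3. The purple acid phosphatase PAP17 rose by 0.69 (SE 0.14, adjusted p 0.0318). PAP10 (0.15) and PAP12 (0.26) did not pass, nor did the ribonuclease RNS1 (0.54, adjusted p 0.34).

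The enzymes that exchange phospholipids for other lipids rose together. The galactolipid synthases MGDC (MGD3) and MGD2 were higher by 1.57 (SE 0.29, adjusted p 0.0181) and 0.72 (SE 0.13, adjusted p 0.0177), and the sulfolipid enzymes SQD1 and SQD2 by 0.72 and 0.80. MGDC lay between 38 and 83 in the libraries without BiAux and between 113 and 486 in those with it. Of the enzymes that break phospholipids down, the phospholipase C NPC4 (0.80, adjusted p 0.0201) and the glycerophosphodiesterase SRG3 (0.95, adjusted p 0.0415) rose. PLDP2, a phospholipase D, was at 0.65 and did not pass (adjusted p 0.117). G3Pp1, which carries the released glycerol 3-phosphate, rose by 0.92 (adjusted p 0.0243).

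Of the phosphate transporters, PHT1;8 rose by 1.27 (SE 0.19, adjusted p 0.00485), PHT1;2 by 0.77 and PHT1;4 by 0.68. PHT1;8 counted 30 to 91 without BiAux and 107 to 298 with it. PHT1;1, the most abundant of them in total counts with 7846 to 15924, differed by 0.27 (95% interval -0.01 to 0.55) and did not pass. PHT1;5 (1.14, adjusted p 0.0543) and PHT1;9 (0.27) did not pass either. PHT1;1 and PHT1;2 are neighbouring, near-identical copies, so that their counts may be split unevenly. PHO1, which loads phosphate into the xylem, stood at -0.08 and PHO1;H1 at 0.35 (adjusted p 0.0702), neither called.

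HAK5, the high-affinity potassium transporter that roots induce when potassium is short, was the largest rise outside the phosphate list. It counted 153, 251 and 430 in mock against 1092, 608 and 575 in BiAux. In IAA it counted 173, 163 and 219, and in BiAux+IAA 1102, 2750 and 1265. The arms did not overlap, and the difference was 2.22 (SE 0.33, adjusted p 0.00481), with 1.45 without IAA and 2.99 with it (interaction unadjusted p 0.0143, adjusted p 0.534). The other 10 potassium genes tested did not pass, and the list's median was -0.01. BiAux 1 and BiAux+IAA 2 held the highest values of their treatments, as they did in PEPC1, SPX3, IPS1, PS2 and SPX1. The IAA term for HAK5 was 0.32 (adjusted p 0.585), and its list median 0.22.

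**Figure D2:**
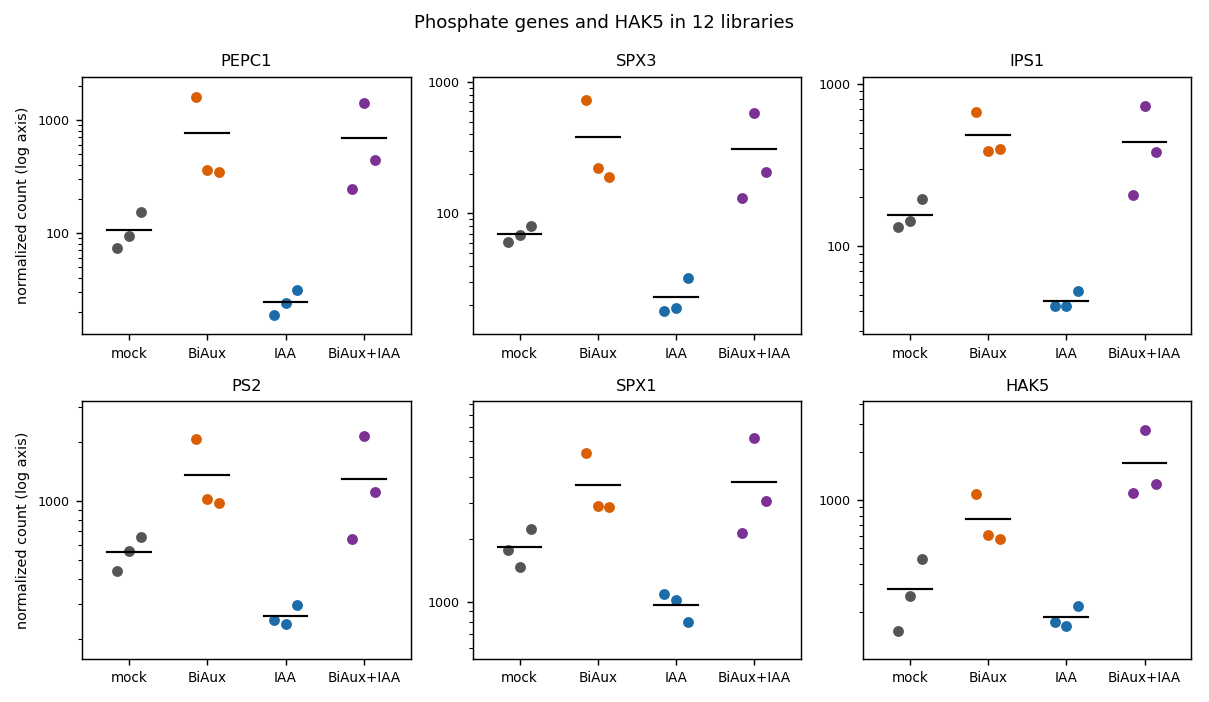
Normalized counts (log axis) of 5 phosphate genes and HAK5 in each of the 12 libraries, by treatment; points are libraries and bars are means of 3. BiAux 1 and BiAux+IAA 2 are the highest of their treatments in every panel, and the IAA libraries the lowest in PEPC1, SPX3, IPS1, PS2 and SPX1.

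Other rises had the same order of libraries. ACA1 and AT5G20790 are among the 12 largest rises, and the others were named after their values were seen. The carbonic anhydrase ACA1 (AT3G52720) counted 102, 84 and 125 in mock, 535, 259 and 237 in BiAux, 65, 57 and 32 in IAA and 224, 484 and 253 in BiAux+IAA, a rise of 1.89 (SE 0.24, adjusted p 0.00169). AT5G20790, of unknown function, rose by 1.38 (SE 0.23, adjusted p 0.00989), AT3G25240 by 2.04 (adjusted p 0.00947) and G3Pp3, a relative of G3Pp1, by 1.43 (adjusted p 0.00505). In ACA1, AT5G20790, AT3G25240 and G3Pp3 BiAux 1 and BiAux+IAA 2 were again the highest of their treatments.

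The tested members of the nitrate, iron and sulfur lists did not follow. None of the 17 nitrate genes tested of 20 listed was called, with a median of 0.07. Nor was any of the 16 iron genes tested of 21 listed, with a median of -0.04. NRT2.2, NRT2.4, AMT1;1, BHLH100, S8H, MYB72, IMA1 and IMA3 were not tested here, so that nothing is known of them. The nitrate reductase gene NIA1 (0.38, adjusted p 0.0434) and the transporter gene OPT3 (0.23, adjusted p 0.0471) passed the adjusted p with a difference under 0.5. Of the 13 sulfur genes tested of 14 listed (BGLU28 was not tested) 1 was called, DIN2, and it fell, against 0.522% of all genes called lower. The sulfur list's median was 0.12.

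A second set of genes differed between the arms with little spread inside them. AT1G36240, annotated as a ribosomal protein of the L7Ae/L30e family (chromosome 1, 13614890 to 13616233 in TAIR10.1), had the lowest adjusted p of all. It counted 2205, 2597 and 2348 in mock and 1748, 1709 and 2076 in IAA. It counted 250, 338 and 317 in BiAux and 388, 221 and 279 in BiAux+IAA. Every BiAux library was thus under 400 and every other library above 1700, a separation in this direction that 133 of the 19338 genes showed (0.688%). The difference was -2.76 (SE 0.12, adjusted p 8.43e-08), and it kept a value between -2.87 and -2.58 in each alternative run. The IAA term was -0.21 (adjusted p 0.341). Its family members AT1G77940 and AT3G18740, at 10325 to 16281 and 4924 to 7444 normalized counts, differed by 0.07 and 0.04 and did not pass. Reads shared among such copies may have been dropped or assigned unevenly.

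AT5G24240, annotated as a phosphatidylinositol 4-kinase gamma-like protein, moved the other way. It counted 1315, 1084 and 1123 in mock, 1311, 1290 and 1317 in IAA, 3372, 3014 and 2987 in BiAux and 2865, 2989 and 3149 in BiAux+IAA. The rise was 1.30 (SE 0.06, adjusted p 1.76e-07), with an SD within treatments of 0.09 on the log2 scale, where the median over the called genes was 0.22 and that of PEPC1 0.91. AT1G75945, of unknown function, counted 86 to 135 without BiAux and 275 to 392 with it (1.47, SE 0.11, adjusted p 1.11e-05). The plots of these genes show 2 levels that go with BiAux, while the IAA term did not pass for AT5G24240 (0.05, adjusted p 0.671) or AT1G75945 (0.08, adjusted p 0.691).

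Other genes with low adjusted p-values were named after the values were seen. AT2G01422, a non-coding RNA of low abundance, counted 1 to 9 without BiAux and 56 to 127 with it (2.19, SE 0.15, adjusted p 5.1e-06). AT5G26270 rose by 0.85 (SE 0.06), the actin-related gene ARP9 by 0.82 (SE 0.08) and the malate channel gene ALMT1 by 0.87 (SE 0.09), which counted 1479 to 1700 without BiAux and 2434 to 3506 with it. The called genes were spread over the genome, with between 0.879% and 0.987% of the tested genes called on each of the 5 chromosomes. Of the called genes, 8 pairs were direct neighbours among the genes tested, and in 7 of them both members moved the same way. The share of neighbours that moved the same way over all genes tested was not counted. CYP93D1 and CYP712A2, P450 genes 344 bases apart, both rose (1.11 and 1.12), and the protease inhibitor genes AT5G43570 and UPI, 159 bases apart, both fell (-1.28 and -0.62).

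**Figure D3:**
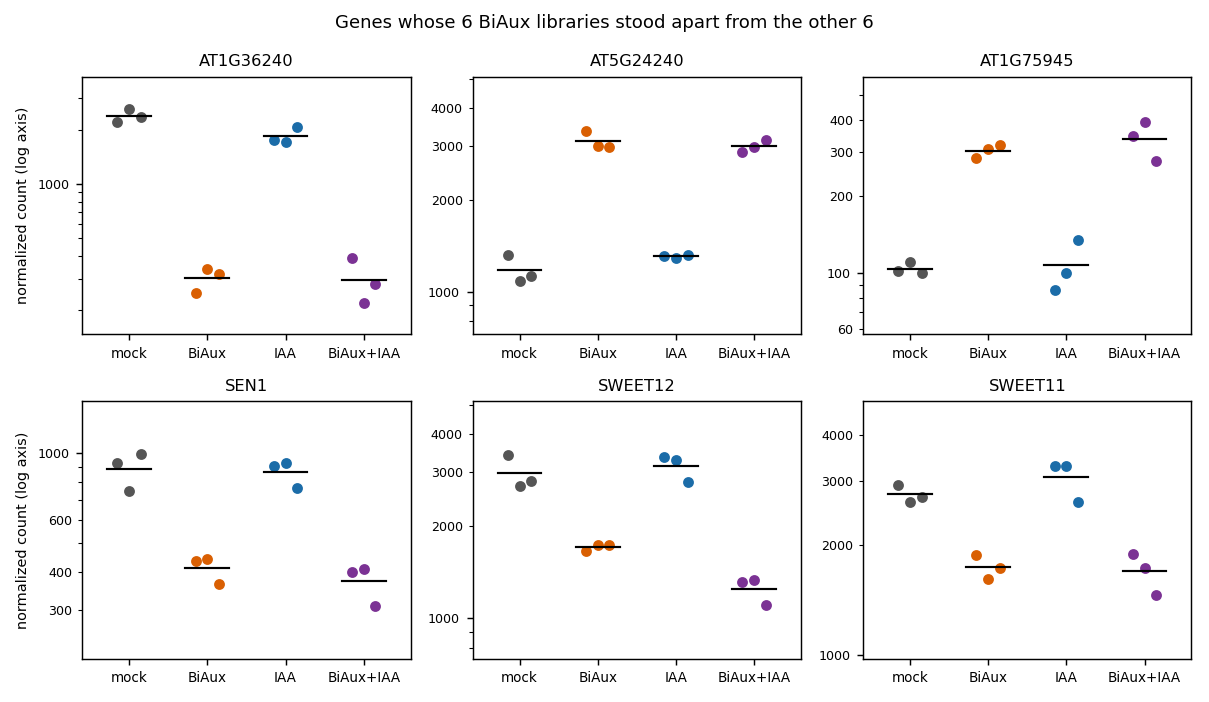
Normalized counts (log axis) of AT1G36240, AT5G24240, AT1G75945, SEN1, SWEET12 and SWEET11 in each of the 12 libraries, by treatment; points are libraries and bars are means of 3. In each panel the 6 BiAux libraries lie on one side of the other 6, as in AT1G36240, with 221 to 388 against 1709 to 2597.

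Of the 12 sugar transport genes tested, 2 fell, against 0.522% of all genes called lower: SWEET12 and SWEET11. Both export sucrose from cells. SWEET12 counted 3415, 2714 and 2814 in mock and 3377, 3287 and 2781 in IAA, and 1654, 1732 and 1730 in BiAux and 1312, 1333 and 1103 in BiAux+IAA. It fell by 1.06 (SE 0.10, adjusted p 0.000191), with differences of -0.79 without IAA and -1.32 with it. SWEET11 fell by 0.76 (SE 0.08, adjusted p 0.000498), from 2624 to 3303 without BiAux to 1461 to 1891 with it. The other 10 did not pass, and the list's median was -0.14 (-0.11 for the IAA term). The IAA term was -0.18 for SWEET12 and 0.05 for SWEET11, neither called. SWEET4, which is not on the list, was called higher (0.54, adjusted p 0.0491) at 8 to 47 counts.

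SEN1 (also DIN1) and DIN2 are genes known to be induced by darkness and sugar shortage. SEN1 counted 925, 746 and 991 in mock, 903, 926 and 762 in IAA, 436, 442 and 365 in BiAux and 401, 411 and 309 in BiAux+IAA. It fell by 1.12 (SE 0.10, adjusted p 5.45e-05), and its IAA term was -0.09 (adjusted p 0.593). DIN2, a beta-glucosidase, fell by 1.22 (SE 0.28, adjusted p 0.0464), from 158 to 583 without BiAux to 67 to 178 with it, and its adjusted p was above 0.05 in 12 of the 24 alternatives (at most 0.108). The others of this name, picked after SEN1 and DIN2 had been seen, did not pass: DIN3 (BCE2) was at -0.25, DIN4 at -0.09, DIN6 (ASN1) at -0.09, DIN9 at -0.25 and DIN10 at -0.30. Single called falls on no list, named after their values were seen, were MGL (methionine gamma-lyase, -0.63), BCAT-2 (branched-chain amino acid transaminase, -0.63), the malate synthase MLS (-0.71) and bZIP1 (-0.55), a transcription factor of low-energy signalling.

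The other large falls were of single genes on no list. SNG1, the sinapoyltransferase that makes sinapoylmalate, fell by 0.95 (SE 0.11, adjusted p 0.000971), from 526 to 646 without BiAux to 202 to 359 with it. The lipid acyl hydrolase PLA2A fell by 1.01 (SE 0.12, adjusted p 0.00125) and the alkenal reductase AER, which removes reactive carbonyls, by 0.87 (SE 0.11, adjusted p 0.00166), both without overlap between the arms. The dioxygenase gene AT5G43450 fell by 1.1 (SE 0.21, adjusted p 0.0193) and MLO3 by 0.89 (SE 0.20, adjusted p 0.045). AT5G43450 lost the call without IAA 3 and without the IAA covariate (adjusted p 0.0583 at most), and MLO3 in 12 of the alternatives (up to 0.176). AT4G15990 (-1.07), AT3G19200 (-0.93) and AT5G66580 (-0.87), of unknown function, completed the 12 largest falls. AT3G19200 lost the call without the IAA covariate (adjusted p 0.135) and without BiAux 1 and BiAux+IAA 2 (0.0503).

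Among the largest rises, GLP9, a germin-like protein, counted 149 to 234 without BiAux and 262 to 722 with it (1.03, SE 0.19, adjusted p 0.0185), and lost the call without IAA 1, without IAA 2, or without BiAux 1 and BiAux+IAA 2 (adjusted p 0.091 at most). AT3G45070, annotated as a P-loop nucleoside triphosphate hydrolase, rose by 0.95 (SE 0.14, adjusted p 0.0048), with 1189 to 1540 counts without BiAux and 1880 to 3370 with it. In both genes every BiAux library was above every other library.

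Auxin response genes were lower with BiAux where they moved at all. Of the 23 tested of 25 listed (IAA5 and IAA6 were not tested here), 4 fell and none rose, against 0.522% of all genes called lower. The list's median was -0.23, against -0.03 over all genes, with 22 of 23 differences negative, and 0.15 for the IAA term. The 4 were the conjugating enzymes GH3.3, GH3.1 and WES1 (GH3.5) and the Aux/IAA repressor IAA1. The number called was between 3 and 5 whichever library was left out, and 4 without mock 1 and BiAux 1.

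GH3.3 counted 121, 165 and 205 in mock against 58, 105 and 116 in BiAux, and 246, 277 and 378 in IAA against 170, 156 and 136 in BiAux+IAA. It fell by 0.81 (SE 0.16, adjusted p 0.0246), while the IAA term raised it by 0.75 (adjusted p 0.02). Its level in BiAux+IAA thus lay in the range of mock. GH3.3 lost the call without IAA 2, IAA 3, BiAux+IAA 2 or BiAux+IAA 3, without the IAA covariate, and without BiAux 1 and BiAux+IAA 2 (adjusted p 0.227 at most). GH3.1 fell by 0.73 (SE 0.12, adjusted p 0.00786), WES1 by 0.61 (SE 0.08, adjusted p 0.00126) and IAA1 by 0.58 (SE 0.07, adjusted p 0.00153), each without overlap between the arms. Over all genes tested, 0.688% had the 6 BiAux libraries all below the other 6. With a pseudocount of 2 CPM the difference of IAA1 was -0.45, under the limit of the call.

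A further 3 genes of the list passed the adjusted p with a difference under 0.5, and they act in lateral root initiation or as repressors. LBD29, a target of ARF7 and ARF19, counted 145, 113 and 154 in mock against 100, 110 and 107 in BiAux, and 197, 201 and 193 in IAA against 127, 122 and 126 in BiAux+IAA (-0.46, SE 0.09, adjusted p 0.0201). LBD16 was at -0.37 (SE 0.07, adjusted p 0.0282) and the repressor IAA2 at -0.44 (SE 0.06, adjusted p 0.00462). All 6 markers of founder cells and lateral root primordia were negative, with a median of -0.37 and none called. Their summed level, in CPM (normalized counts scaled to a fixed total per library), was 22.8 to 26.7 with BiAux and 28.2 to 38.3 without, so that the arms did not overlap. Of these 6 markers 5 are also on the auxin response list, and in whole roots fewer cells of a type and less RNA per cell cannot be told apart. The part of these markers in the fall of the auxin list was not tested.

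**Figure D4:**
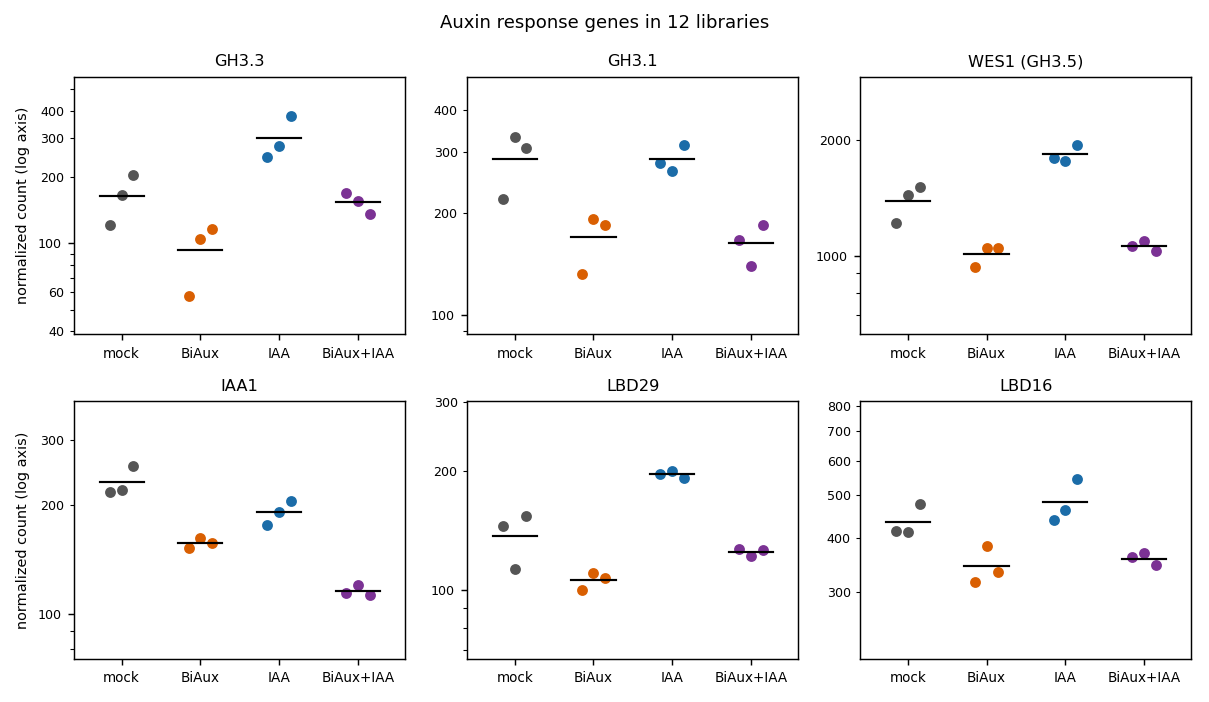
Normalized counts (log axis) of GH3.3, GH3.1, WES1 (GH3.5), IAA1, LBD29 and LBD16 in each of the 12 libraries, by treatment; points are libraries and bars are means of 3. The BiAux libraries lie below mock and the BiAux+IAA libraries below IAA, as in WES1 with 1029 to 1093 in BiAux+IAA against 1768 to 1945 in IAA.

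The co-receptors and response factors themselves did not pass the test. Levels of TIR1 differed by -0.06 (95% interval -0.23 to 0.11), of AFB2 by 0.04 (-0.07 to 0.15), of AFB3 by -0.06 (-0.22 to 0.10) and of GRH1 (AFB1) by 0.01 (-0.18 to 0.19). NPH4 (ARF7) was at -0.12 (-0.29 to 0.05) and ARF19 at -0.09 (-0.35 to 0.17). IAA28 was at 0.06 (-0.08 to 0.21) and IAA18 at -0.12 (-0.28 to 0.04). All 8 intervals lie within 0.5 of 0, and they are on transcripts, since proteins were not measured.

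Aliphatic glucosinolates are defence compounds made from methionine. Of the 12 genes tested of 15 listed, 3 rose and 9 did not pass, against 0.409% of all genes called higher. The 3 were the chain-elongation enzyme IMD1 (0.74, SE 0.13, adjusted p 0.0161), the regulator MYB28 (0.70, SE 0.15, adjusted p 0.0332) and the transporter BAT5 (0.64, SE 0.13, adjusted p 0.0308). All 12 differences were positive, with a median of 0.65 (0.36 without IAA, 0.90 with it, and -0.48 for the IAA term). IMD1 counted 2284, 2579 and 3377 in mock against 3805, 3680 and 3737 in BiAux, and 1473, 1454 and 1614 in IAA against 2342, 3877 and 3206 in BiAux+IAA. Within each pair of treatments the BiAux libraries were higher, although BiAux+IAA 1 lay near mock 1. The number called was 0 without IAA 1 or IAA 2, 1 without IAA 3 or BiAux+IAA 3, and 7 without mock 3. The 10 indolic glucosinolate genes tested had a median of 0.01 and none passed. CYP79F1, MYB29 and MYB76 were not tested here.

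Mitochondrial dysfunction genes answer to impaired respiration. All 14 differences were negative, with a median of -0.71, but 2 passed the call, against 0.522% of all genes called lower. The 2 were the efflux carrier DTX1 (-0.86, SE 0.13, adjusted p 0.00557) and the glucosyltransferase UGT74E2 (-0.67, SE 0.12, adjusted p 0.0177), which glucosylates indole-3-butyric acid. DTX1 counted 235 to 403 without BiAux and 132 to 210 with it. UGT74E2 lost the call without IAA 3 (adjusted p 0.0527), which left 1 member called. The list's median was -0.74 without IAA and -0.27 with it, and -0.57 for the IAA term. The alternative oxidase AOX1D counted 166, 288 and 351 in mock, 27, 45 and 54 in BiAux, 21, 30 and 80 in IAA and 9, 54 and 38 in BiAux+IAA (-1.26, SE 0.39, adjusted p 0.165). It was thus high in mock and low under every treatment, as was AT2G21640 with 359 to 698 in mock and 61 to 209 elsewhere.

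In the cytokinin lists 1 gene each rose, of 10 type-A regulators and 8 metabolism genes tested, against 0.409% of all genes called higher. CYP735A2, which makes trans-zeatin-type cytokinins, rose by 0.70 (SE 0.10, adjusted p 0.00441), and the IAA term raised it by 0.76 (adjusted p 0.0013). It counted 413, 538 and 532 in mock, 698, 823 and 701 in BiAux, 809, 759 and 749 in IAA and 1227, 1740 and 1244 in BiAux+IAA, so that each treatment lay above mock and the combination above both. CYP735A2 lost the call without the IAA covariate (adjusted p 0.243). The type-A response regulator RR17 (ARR17) rose by 0.77 (SE 0.13, adjusted p 0.0143) at 12 to 28 counts without BiAux and 30 to 47 with it. At these low counts its difference was 0.36, under the limit of the call, with a pseudocount of 2 CPM and 1.11 with 0.1 CPM, and its adjusted p was 0.078 without BiAux 1 and BiAux+IAA 2. The medians of the type-A regulators (10 tested) and of the cytokinin metabolism genes (8 tested) were 0.15 and 0.20.

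In the other lists, 11 of 20 with 129 genes tested, no gene was called: auxin co-receptors, nitrate, iron, evening clock, morning clock, heat, jasmonate, indolic glucosinolates, hypoxia, pipecolate and salicylate defence, and suberin. Their medians lay between -0.26 and 0.08. Several of these lists were tested only in part, with 10 of 17 heat genes, 18 of 22 jasmonate genes and 12 of 15 defence genes. Among the members not tested were HSP21, HSP22, JAZ8, LOX2, LOX3, MYC2, PR1, PR2 and PR5. The IAA term called 6 of the 10 heat genes lower (median -0.55), against 0.827% of all genes. It called 5 of the 9 evening clock genes higher (median 0.51), against 0.45% of all genes. Of the 18 jasmonate genes it called 2 lower, and in each other of these lists at most 1 gene. None of the 39 markers tested of root hair, endodermis, phloem, xylem, dividing, founder, root identity and shoot cells was called in either direction. Among them the shoot marker RBCS1A counted 540, 657 and 611 in mock, 250, 316 and 271 in BiAux, 508, 509 and 314 in IAA and 461, 401 and 316 in BiAux+IAA (-0.61, SE 0.18, adjusted p 0.124). The summed shoot markers were at 89.97 to 119 CPM with BiAux and 92.5 to 150.3 without, so that the arms overlapped. The part of these markers in the results was not tested. The root tissue of the label was checked on endodermal markers, which summed to 441.6 to 898.7 CPM in all 12 libraries. The plot of the gene lists shows the phosphate, aliphatic glucosinolate and mitochondrial lists away from 0.

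**Figure D5:**
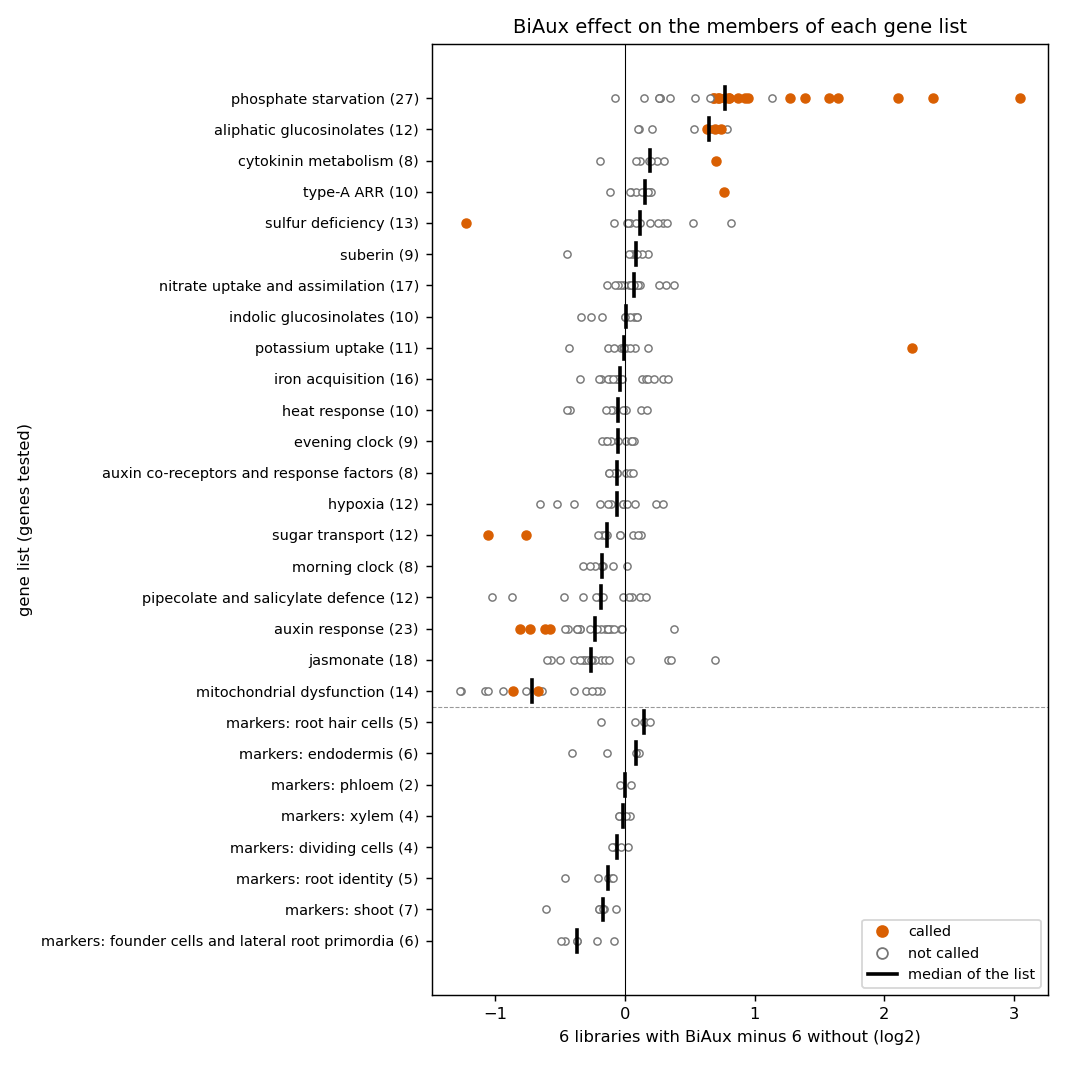
Log2 difference between the 6 libraries with BiAux and the 6 without, for each tested gene of each list (filled: called; open: not called), with the list's median as a bar and the number of genes tested in brackets; cell type markers lie below the dashed line. The phosphate list has its median at 0.77 and 17 called genes, and HAK5 stands alone among the potassium genes at 2.22.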

How the data were processed

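Seedling roots were sequenced as paired-end poly(A) RNA. Per the study's methods, the authors used Trimmomatic for trimming, STAR and TAIR10 for alignment, HTSeq with Araport11 for counts per gene and edgeR for normalization, while the submitters' processing notes name HISAT2. The deposited table holds log2 values of a normalized count plus 1 for 20814 genes in 12 libraries. Turned back, all deposited log2 values of at most 8 lay within 0.1 of a whole number, and higher values were not checked. These are not reads, so that limma 3.58.1 (R 4.3.3, trend and empirical Bayes) was used and no count test.

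Values were turned back into normalized counts, and those averaging 0.5 CPM or more over the 12 libraries were kept. The test was made on log2(count + 16.3), the same level, with BiAux and IAA as additive terms, and p-values were Benjamini-Hochberg adjusted over all 19338 genes. Called means an adjusted p under 0.05 and a log2 difference beyond 0.5. The additive fit was tested on simulated data for the BiAux term. The comparisons within each IAA level and the interaction were not.

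Named genes were the 12 largest rises and 12 largest falls of at least 5 CPM with the same sign with and without IAA, up to 4 called members of each list, and the co-receptors. The remaining phosphate genes are given as members of the list, and every other gene was named after its values were seen. Members and lists were chosen with earlier results of these data known. RefSeq matched 20694 of the 20814 gene identifiers.

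Same-numbered replicates were checked for pairing. The deviations of same-numbered libraries had r above 0.1 in 9 of 18 pairs (from -0.396 to 0.779), but in BiAux against mock all 3 did. Deviations from a mean of 3 depend on each other, and unlike-numbered libraries were not compared, so that the check cannot show pairing.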

Additional observations from a re-analysis of the deposited data

Results flagged for a closer look

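In each arm of 6 libraries, the named genes were searched for 1 library far from the others, by the ratio of its gap to the range against Dixon's limit for 6 samples, which chance passes in about 1 arm in 20. Of 88 arms, 6 passed. In SNG1, BiAux+IAA 3 was low at 202 normalized counts, with the next at 301 (ratio 0.69), and IAA 3 was low in the other arm at 526, with the next at 599 (0.632). In GRH1 (AFB1), BiAux+IAA 3 was high at 2130, with the next at 1803 (0.67). In AFB3, mock 1 was low at 636, with the next at 753 (0.792). In ARF19, BiAux 1 was low at 1017, with the next at 1355 (0.641), and mock 1 was low at 935, with the next at 1473 (0.777). Mock 1 and BiAux 1 are the libraries that stood apart on the first principal component. Their part in these values was not tested.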

How the results depend on the processing

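The count of 180 genes for BiAux stayed within 1.5 times under 16 of 24 alternatives. It was 119 with a pseudocount of 2 CPM, 103 with genes under a mean of 5 CPM left out, 86 without the IAA covariate and 93 without BiAux 1 and BiAux+IAA 2 (added after seeing the data). It ranged from 101 to 215 with 1 library left out. By unadjusted p, 357 genes passed, against 196 and 188 under the first 2 of these. The comparison without IAA (6 genes) called 3 with a pseudocount of 2 CPM, 10 with median-of-ratios factors and 38 in 1 fit of all 12 libraries, and 1 to 31 with 1 library left out. With IAA (365 genes), 1 fit of all 12 libraries called 195, and leaving 1 library out gave 127 to 462. The interaction gave 0 to 1 genes when 1 library was left out. The IAA term (247 genes) gave 150 with a pseudocount of 2 CPM and 163 to 260 with 1 library left out. The cause of these differences was not tested. With the replicate number as a block, the counts were 234 for BiAux over all 12 libraries, 493 with IAA and 271 without IAA.

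Of the 24 largest named rises and falls, 19 kept their direction and an adjusted p under 0.05 under every alternative of the BiAux fit, and all 24 kept their direction. Counting error cannot be given, since the read depth of each library is unknown.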
